A study of Mus musculus with 43 samples.

Results

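Molecular chaperones and co-chaperones other than Hsph1 were followed in 4 hypothalamic nuclei of mice with a paternal deletion of the Snord116 cluster, fed or fasted for 24 hours. The genes were chosen by symbol alone: the Dnaj, Fkbp, Hspa, Hspb, Hspd, Hspe and Hsp90 families, Cct2 to Cct8 and Bag1 to Bag6, with Hsph1, Hspg2 and pseudogenes left out. They numbered 41 of the 10127 genes of the table, namely 18 Dnaj, 7 Fkbp, 4 Hspa, 4 Hspb and 4 Bag genes, 3 Cct genes and Hspe1. Of the 102 protein-coding genes that the same rule finds in the GENCODE M21 annotation, 51 have identifiers in a range of which the table held no gene. Hspa8, Hspa5, Hspa9, Hspd1, Hsp90aa1, Hsp90ab1, Dnajb1 and Fkbp5 are therefore not analysed here, and no Hsp90 gene is among the 41.

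All mice were males of the line B6(Cg)-Snord116tm1.1Uta/J on a C57BL/6J background, 16 to 19 weeks old, and every one carried the deletion, the controls included. The 6 fed mice ate ad libitum, and the 6 fasted mice had no food for 24 hours before the brain was taken. Wild-type mice are not analysed here, and fasting is compared within the deletion genotype alone. The arcuate nucleus (ARC), dorsomedial hypothalamus (DMH), paraventricular nucleus (PVN) and ventromedial hypothalamus (VMH) were collected by laser capture microdissection, and 41 libraries of 50-base single-end reads from amplified RNA were analysed. The ARC gave 4 fasted and 5 fed libraries, the DMH 5 and 6, the PVN 5 and 5, and the VMH 6 and 5. A mouse is called by its state and number in the labels, as in Fast-100 or Fed-111, and mice Fast-85 and Fed-92 enter with 1 library each, from the VMH and the DMH. A further library of each is not analysed here, because the labels place it in the PVN and the table names the columns with these numbers as ARC. Values are CPM, read counts scaled to the size of the library, and 1 read was worth between 0.121 and 0.515 CPM, since depth lay between 1.94 and 8.23 M (mega) reads with a median of 4.10 M.

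Marker genes of each nucleus were highest in the captures with its label. The measured ARC markers Npy and Crabp1 summed to 323 to 1495 CPM in ARC libraries and to at most 41.5 CPM elsewhere. The corresponding values were 199.8 to 338 and at most 106 CPM for the DMH (Npvf and Gpr50), 426 to 1600.1 and at most 10.04 CPM for the PVN (Avp and Crh), and 551 to 879 and at most 116 CPM for the VMH (Fezf1, Sox14 and Gda). Each library is a mixture of neurons, glia and vessels, so fewer cells of a type and less RNA per cell cannot be told apart.

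Chaperones bind unfolded or half-made proteins and keep them from clumping until they fold. Hsp70 proteins (Hspa genes) bind and release substrates in a cycle driven by ATP: J-domain proteins (Dnaj genes) bring substrate and start hydrolysis, and nucleotide exchange factors such as the Bag proteins and Hspbp1 let the substrate go. The chaperonin TRiC, a ring assembled from Cct subunits and Tcp1, folds actin and tubulin, and the mitochondrial chaperonin pairs Hspd1 with its lid Hspe1. Fkbp proteins are prolyl isomerases, several of which serve as partners of Hsp90 or work in the endoplasmic reticulum (ER), and small heat shock proteins, here Hspb6 and Hspb8, hold substrates without ATP. The Hspb symbols also take in Hspbp1 and Hspb11, a protein of intraflagellar transport. Many of these genes are raised by the transcription factor HSF1, which binds heat shock elements, inverted repeats of the unit GAA.

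The promoter sequences are shown for the 4 genes that head the rule on named genes. They are Cct7, which alone of the members passed the test of fasting, and Hspe1, Hspa1a and Fkbp4, which are known to respond to HSF1. Each line gives the 250 bases before the start site from RefSeq on GRCm38.p6, 5′ to 3′ on the gene's strand, with matches to a heat shock element in capitals. Hspe1 lies at chr1:55087898-55088147 (plus strand), Hspa1a at chr17:34972157-34972406 (minus strand), Fkbp4 at chr6:128438657-128438906 (minus strand) and Cct7 at chr6:85451255-85451504 (plus strand).

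Hspe1: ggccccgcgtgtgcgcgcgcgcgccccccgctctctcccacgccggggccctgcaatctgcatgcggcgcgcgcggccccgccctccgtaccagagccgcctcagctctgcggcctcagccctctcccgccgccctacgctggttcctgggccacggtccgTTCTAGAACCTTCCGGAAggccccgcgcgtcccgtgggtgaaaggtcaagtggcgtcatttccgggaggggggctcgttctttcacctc
Hspa1a: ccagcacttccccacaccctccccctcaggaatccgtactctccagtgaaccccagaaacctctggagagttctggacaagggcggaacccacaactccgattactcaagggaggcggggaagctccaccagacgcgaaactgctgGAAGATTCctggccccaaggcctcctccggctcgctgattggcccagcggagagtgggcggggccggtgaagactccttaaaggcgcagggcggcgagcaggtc
Fkbp4: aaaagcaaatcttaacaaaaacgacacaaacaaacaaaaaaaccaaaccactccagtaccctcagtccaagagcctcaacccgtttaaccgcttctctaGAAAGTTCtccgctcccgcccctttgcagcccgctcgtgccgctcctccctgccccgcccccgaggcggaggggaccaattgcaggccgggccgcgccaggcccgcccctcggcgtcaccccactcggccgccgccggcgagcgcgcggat
Cct7: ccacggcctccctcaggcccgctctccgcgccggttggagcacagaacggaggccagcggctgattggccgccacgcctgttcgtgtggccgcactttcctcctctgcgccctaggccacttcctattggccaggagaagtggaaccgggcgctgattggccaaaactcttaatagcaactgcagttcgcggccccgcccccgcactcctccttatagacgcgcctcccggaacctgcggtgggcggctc

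The capitals in Hspe1 span bases -89 to -72 from the start site and hold 2 overlapping matches to the 3-unit element, the units GAA, TTC and GAA with 2 bases of any kind between them, searched on both strands. The 2-unit element, GAANNTTC or TTCNNGAA, matched at -104 to -97 in Hspa1a and at -151 to -144 in Fkbp4. Cct7 held neither in its window. A RefSeq window of 300 bases, 250 before and 50 after a start site, was given for 34 of the 41 genes, 44 windows in all. The 3-unit element was found in 3 of the 44 windows, those of Hspe1 and Dnajb6, against 0.603% of 32851 windows of all genes. The Dnajb6 windows overlap and hold the same stretch, which is therefore counted more than once, also in the 2-unit count below. These shares are of windows and not of genes. The 2-unit element, which every 3-unit match also contains, was found in 11 windows of 10 genes, 25% of the 44 windows against 15.1% of all. Besides Hspe1, Hspa1a, Fkbp4 and Dnajb6, those genes were Cct2, Cct6a, Bag3, Dnaja4, Hspb6 and Hspb8. The sequence of Bag3, also known to be raised by HSF1, is not shown, and its match lay after the start site, at bases 43 to 50. The ER stress element, CCAAT and CCACG with 9 bases of any kind between them, was in none of the 44 windows and in 0.119% of all windows. These are matches of letters in short windows, and binding was not measured.

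The chaperone genes spanned a wide range of levels, compared here as CPM per kilobase of exon, averaged over the 41 libraries. Fkbp1a, the isomerase FKBP12 that binds the ryanodine and TGF-beta receptors, stood highest at 138 CPM per kilobase. Fkbp4, the Hsp90 partner FKBP52, followed at 71.6, Cct2, the beta subunit of TRiC, at 70.5, Dnaja2, a cytosolic J-domain protein, at 60.9, Fkbp2, an ER isomerase, at 60.3, and Hspe1 at 58.8. Bag5 led its family at 23.5 CPM per kilobase, Hspa13 the Hspa genes at 10.97 and Hspb8 the Hspb genes at 9.76. Hspa1a, the inducible Hsp70, was near the bottom at 2.66 CPM per kilobase, and Fkbpl and Dnajb3 were lowest at 1.88 and 0.807. These ranks depend on the length used: with the principal transcript in place of all exons, Fkbp1a stayed first, Fkbp2 moved to rank 2 and Hspe1 to rank 3, Fkbp4 moved from rank 2 to rank 6, and Hspb11 at 30.9 CPM per kilobase led the Hspb genes, above Hspb8 at 10.5.

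The spread over libraries differed widely between members. The synaptic vesicle co-chaperone Dnajc5 varied least, with a coefficient of variation (SD over mean) of 13.8% over all 41 libraries. It was largest for the lowest members, 138% for Dnajb3 and 115% for Fkbpl, followed by 84.2% for Bag3, 82.2% for Hspb8, 77.6% for Hspa12b and 69.1% for Hspa1a. Dnajb3 was at 0 in 12 libraries and Fkbpl in 3, while the other members were above 0 in every library.

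**Figure D1:**
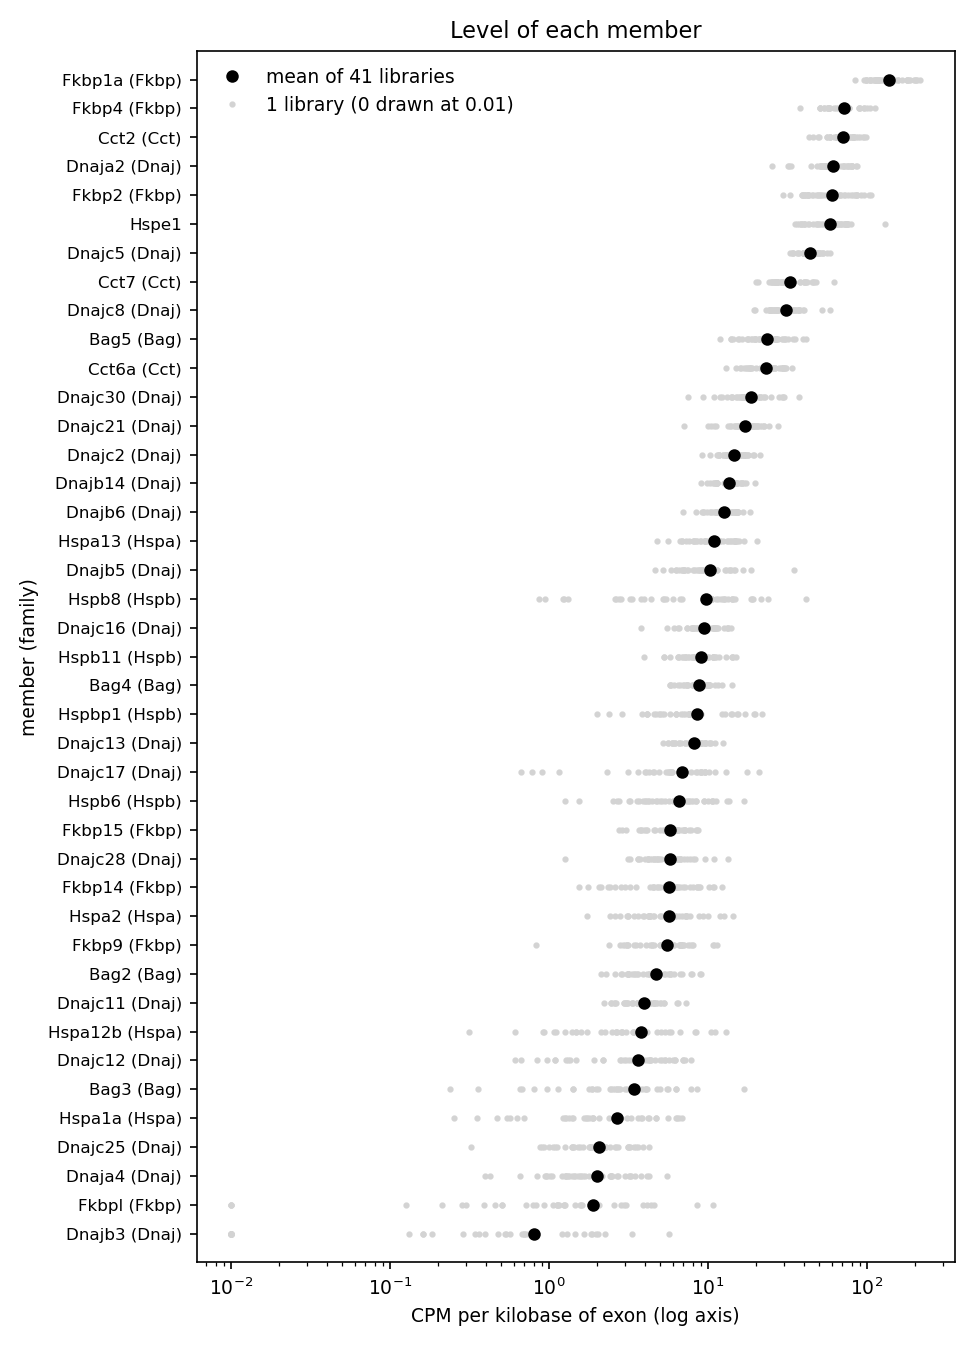
Mean level of each of the 41 chaperone genes (black) and its value in each library (grey) in CPM per kilobase of exon, on a log axis. Fkbp1a at 138 heads the order and Dnajb3 at 0.807 closes it.

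The first question of the design is what 24 hours without food did to these genes in each nucleus. Cct7, the eta subunit of TRiC, was the single member that passed the test in a nucleus, and it fell in the ARC. Its CPM in fasted ARC libraries was 212 in mouse Fast-100, 169 in mouse Fast-305, 197 in mouse Fast-311 and 186 in mouse Fast-86. Fed ARC libraries held 309 in mouse Fed-111, 325 in mouse Fed-125, 419 in mouse Fed-127, 284 in mouse Fed-308 and 273 in mouse Fed-313. Every fed value was above every fasted one. The log2 difference, fasted minus fed with batch as a covariate, was -0.69 ± 0.11 (SE), with an adjusted p of 0.0267 from limma over 9654 genes. In that comparison 0.176% of all genes passed the threshold of an adjusted p under 0.1, and 0.0725% passed it and were lower. Leaving out batch from the model gave an adjusted p of 0.314 for Cct7. It was 0.254 without mouse Fast-100 and 0.108 without mouse Fed-308, and the difference itself stayed between -0.75 and -0.64 over all 9 libraries left out in turn.

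Cct7 was also lower on average in the other nuclei, where it did not pass the adjusted threshold. In the VMH, fasted libraries lay between 139 and 185 CPM with a median of 175. The fed values there were 273, 316, 230, 199 and 185 in mice Fed-111, Fed-125, Fed-127, Fed-308 and Fed-313. The highest fasted value, 184.5, lay just under the lowest fed one, 184.8, and the difference was -0.50 ± 0.12 (adjusted p = 0.281). In the PVN, fasted libraries held 222, 207, 183, 185 and 183 CPM in mice Fast-100, Fast-101, Fast-305, Fast-311 and Fast-86, against 220, 258, 258, 304 and 279 in mice Fed-111, Fed-125, Fed-127, Fed-308 and Fed-313. One fasted value overlapped one fed value, and the difference was -0.42 ± 0.11 (adjusted p = 0.155, and 0.0613 when libraries were weighted by their quality). In the DMH the groups overlapped more widely: fasted libraries spanned 136 to 203 CPM and the 6 fed ones 177 to 275 with a median of 209, a difference of -0.30 ± 0.13 (adjusted p = 0.721). Within the single batches of each nucleus, the mean of fasted libraries was below that of fed ones in 12 of 12 combinations, by 0.20 to 0.80 on the log2 scale. These combinations hold the libraries of the fits above, with several from the same mouse. In batch 1 of the ARC and of the PVN they are 1 fasted against 1 fed library. The share of all genes with such a count is not given here, so the count is no separate test.

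The other TRiC genes did not pass in any nucleus. Cct6a, the zeta subunit, was named after its values were seen. In the ARC its fasted libraries held 95.7, 64.0, 113 and 79.1 CPM in mice Fast-100, Fast-305, Fast-311 and Fast-86, and its fed libraries 108, 123, 104, 110.9 and 108 in mice Fed-111, Fed-125, Fed-127, Fed-308 and Fed-313. Mouse Fast-311 reached into the fed range and the other fasted mice lay below it. The Cct6a difference was -0.34 ± 0.17 in the ARC, -0.37 ± 0.16 in the DMH, -0.11 ± 0.16 in the PVN and -0.33 ± 0.16 in the VMH, with adjusted p of 0.615 or more in each, and the ARC difference was -0.19 without mouse Fast-305. The Cct6a difference in the PVN ran from -0.24 without mouse Fast-86 or Fed-111 to -0.02 without mouse Fast-311. GENCODE M21 lists Cct6a as a processed transcript. For Cct2, the beta subunit and the highest of the 3 per kilobase, the difference was 0.01 ± 0.12 in the ARC, 0.03 ± 0.14 in the DMH, -0.20 ± 0.12 in the PVN and -0.14 ± 0.13 in the VMH. With 1 library left out, it ran from -0.03 to 0.07 in the ARC, from -0.11 to 0.13 in the DMH and from -0.25 to -0.01 in the VMH. Tcp1, which encodes the alpha subunit of the same ring and is no member by its symbol, was also named after its values were seen. It was at 156 to 272 CPM in fasted and 273 to 382 CPM in fed ARC libraries, with no overlap (-0.43 ± 0.14, adjusted p = 0.424, and -0.26 without mouse Fast-86 or Fed-111). In the DMH its difference was 0.07 ± 0.12 (0.01 without mouse Fed-92 and 0.12 without mouse Fed-127).

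Hspe1, the mitochondrial co-chaperonin, showed lower averages in fasted libraries of every nucleus and no call. In the ARC the fasted libraries held 95.4, 95.1, 107 and 53.2 CPM in mice Fast-100, Fast-305, Fast-311 and Fast-86, and the fed ones 110, 112, 192, 107 and 109 in mice Fed-111, Fed-125, Fed-127, Fed-308 and Fed-313. Mouse Fast-86 was the lowest and mouse Fed-127 the highest, and the other values lay between 95.1 and 112. The difference was -0.48 ± 0.19 (adjusted p = 0.543) in the ARC, and between -0.34 and -0.25 in the other nuclei. Without mouse Fast-86 or Fed-111 it was -0.31 in the ARC and -0.07 in the PVN. In the VMH it was -0.15 without mouse Fed-111, -0.16 without mouse Fed-127 and -0.45 without mouse Fed-125. Hspe1 shares 7.60% of its exon length with Hspd1 on the opposite strand, Hspa1a 19.01% with Gm20481, Bag4 14.8% with Gm17484 and Cct6a 12.5% with Psph, and the use of strand is not given in the sources used here.

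Hspa1a had the largest differences of the HSF1-responsive genes and the lowest counts. In fasted ARC libraries its CPM was 6.08 in mouse Fast-100, 1.69 in mouse Fast-305, 1.61 in mouse Fast-311 and 5.17 in mouse Fast-86. The fed ARC libraries held 11.4, 10.8, 11.2, 16.6 and 8.42 CPM in mice Fed-111, Fed-125, Fed-127, Fed-308 and Fed-313, so the groups did not overlap. The difference of -1.66 ± 0.47 had an unadjusted p of 0.00231 in limma's fit and an adjusted p of 0.343, and at the depth of these libraries the fasted values rest on few reads. In the PVN the fasted libraries held 5.57, 7.61, 9.16, 7.67 and 3.78 CPM in mice Fast-100, Fast-101, Fast-305, Fast-311 and Fast-86, and the fed ones spread from 5.08 to 20.2. In the VMH, fasted libraries ranged from 2.06 to 14.0 CPM with a median of 4.09, and fed ones from 1.86 to 19.5 with a median of 12.4. In the DMH the corresponding ranges were 0.753 to 5.61 and 1.04 to 14.0. The groups overlapped in all of these nuclei, and the differences of -0.72 in the PVN, -0.97 in the VMH and -0.74 in the DMH had adjusted p of 0.591, 0.781 and 0.867. Single libraries moved them: the PVN difference was -0.35 without mouse Fast-86 or Fed-111, the VMH one -1.48 without mouse Fast-305 or Fed-313, and the DMH one -0.30 without mouse Fast-305, -0.37 without mouse Fed-308 and -1.14 without mouse Fed-125. With library depth as a covariate the DMH difference was 0.96, of the opposite sign. Hspa1b, the near-identical copy of Hspa1a, is not analysed here, and 58.8% of the 50-base stretches of the Hspa1a transcript are also in the Hspa1b transcript, so reads of both copies may be split between them.

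Fkbp4, the partner of Hsp90 in steroid receptor complexes, had the smallest unadjusted p of any member in the DMH. Its fasted DMH libraries held 196, 143, 107, 150 and 142 CPM in mice Fast-100, Fast-101, Fast-305, Fast-311 and Fast-86, and the 6 fed libraries lay between 162 and 281 with a median of 208. Mouse Fast-100 alone of the fasted mice reached the fed range. The difference was -0.54 ± 0.14 (unadjusted p = 9.5e-04 and adjusted p = 0.541, limma). In the ARC the fasted libraries lay close together at 206 to 214 CPM, the fed ones at 210 to 316, and the difference was -0.31 ± 0.12 (adjusted p = 0.539). It was -0.26 ± 0.12 in the VMH and -0.16 ± 0.14 in the PVN, where it was -0.07 without mouse Fed-127 and -0.31 without mouse Fed-125.

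**Figure D2:**
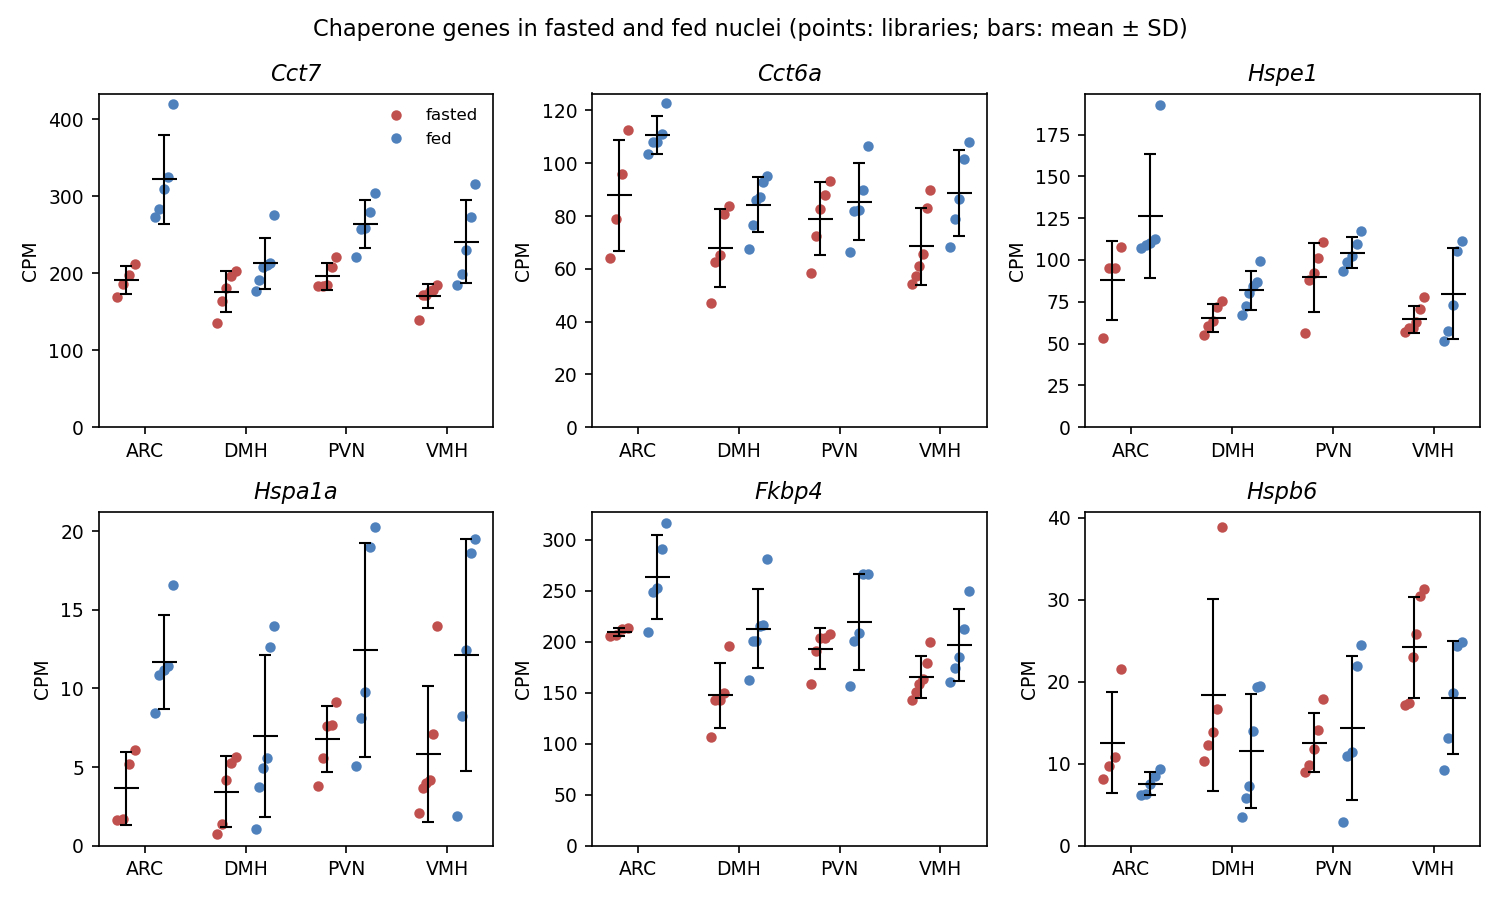
CPM of 6 chaperone genes in each library, by nucleus, for fasted (red) and fed (blue) mice. Bars give the mean ± SD. Fasted and fed values of Cct7 do not overlap in the ARC (169 to 212 against 273 to 419) or the VMH, and Hspa1a does not overlap in the ARC.

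Over the members as a list, few differences passed a test in any nucleus. At an unadjusted p under 0.05, 7 members were lower and 0 higher in the fasted ARC, of 40 tested (3.71% of all genes were lower and 4.39% higher at that level). They were Cct7, Hspa1a, Fkbp1a, Fkbp4, Hspe1, Dnajc12 and Fkbpl. In the DMH 3 were lower (Fkbp4, Cct7 and Cct6a) and 3 higher (Dnajc30, Hspb6 and Bag4), beside 3.53% and 3.1% of all genes. In the PVN 2 were lower (Cct7 and Dnajb14) and 1 higher (Dnajb5), of 41 tested, beside 4.96% and 5.01%, and in the VMH 4 were lower (Cct7, Fkbp4, Fkbp2 and Cct6a) and 0 higher, beside 3.55% and 3.43%. With the threshold on adjusted p, 1 member was called in the ARC. None was called in the DMH, where 0.0103% of all genes passed, all of them lower, in the PVN (0.367% of all genes, and 0.063% lower) or in the VMH (0.0208%, all lower). The median log2 difference of the members was -0.05 in the ARC, -0.06 in the DMH, -0.11 in the PVN and -0.17 in the VMH, and that of all genes tested was within 0.02 of 0 in each. A difference below 0 was found in 23 of 40 members (57.5%) in the ARC and in the DMH, in 26 of 41 (63.4%) in the PVN and in 30 of 40 (75%) in the VMH, beside 48.3%, 48.6%, 49.2% and 50% of all genes.

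The remaining members named by rank of p in a nucleus also failed the adjusted threshold. Fkbp1a did not overlap in the ARC: the fasted libraries held 469, 456, 403 and 443 CPM in mice Fast-100, Fast-305, Fast-311 and Fast-86, and the fed ones lay between 477 and 601 with a median of 555 (-0.30 ± 0.09, adjusted p = 0.421). Groups that do not overlap, with fasted libraries lower, were found in 1.02% of all genes in the ARC and in 3 members (Cct7, Hspa1a and Fkbp1a), and with fasted libraries higher in 1.12% of all genes and no member. In the VMH 0.25% of all genes and 1 member (Cct7) were lower without overlap, in the DMH 0.185% and no member, and in the PVN 0.609% and no member. In the DMH 0.215% of all genes were higher without overlap, and so was 1 member, Bag4, a regulator of Hsp70 and of death receptors: it was at 63.4 to 72.4 CPM in fasted and 40.3 to 60.3 CPM in fed libraries (0.40 ± 0.18, adjusted p = 0.741), and it was named after its values were seen. Fkbp2 in the VMH spanned 49.0 to 174 CPM in fasted and 66.1 to 169 CPM in fed libraries, so that the ranges overlapped over most of their length (-0.34 ± 0.15, adjusted p = 0.712).

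Among genes with higher averages after fasting, Dnajb5, a J-domain protein of the nucleus and cytosol, had the smallest p in the PVN. Its fasted PVN libraries held 99.3, 82.4, 42.0, 75.8 and 207 CPM in mice Fast-100, Fast-101, Fast-305, Fast-311 and Fast-86, against 41.8, 59.2, 48.3, 62.0 and 40.7 in mice Fed-111, Fed-125, Fed-127, Fed-308 and Fed-313. Mouse Fast-305 lay within the fed range, and mouse Fast-86 stood far above all others. The difference was 0.83 ± 0.26 (adjusted p = 0.259), and with library depth as a covariate it was 0.96 with an adjusted p of 0.0422. It was 0.46 without the PVN library of mouse Fast-86 or of mouse Fed-111, the pair of batch 1, where the difference was 2.29 against 0.75 in batch 2 and 0.17 in batch 3. Dnajb14, an ER membrane J-domain protein, was at 154 to 220 CPM in the fasted PVN and 207 to 259 CPM in the fed PVN (-0.26 ± 0.12, adjusted p = 0.495, and -0.14 without mouse Fast-86 or Fed-111). Dnajc30, a mitochondrial J-domain protein that shares 26.2% of its exon length with Bud23 on the opposite strand, was at 23.7 to 62.3 CPM in the fasted DMH and 12.5 to 37.5 CPM in the fed DMH (0.70 ± 0.28, adjusted p = 0.695). Hspb6, the small heat shock protein Hsp20 of muscle and vessel walls, held 13.9, 10.3, 12.3, 16.6 and 38.9 CPM in fasted DMH libraries of mice Fast-100, Fast-101, Fast-305, Fast-311 and Fast-86, and 3.53 to 19.4 CPM with a median of 10.6 in the fed ones. Its values overlapped apart from mouse Fast-86 (0.88 ± 0.37, adjusted p = 0.710).

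Sums of cell type markers did not overlap between fasted and fed libraries in 2 cases. In the ARC the 6 measured of 10 vessel markers (Cldn5, Flt1, Slco1a4, Kdr, Acta2 and Ly6c1) summed to 67.6 to 81.6 CPM in fasted and 88.6 to 102 CPM in fed libraries, with no overlap. In the PVN the 3 measured of 9 neuron markers (Syt1, Tubb3 and Syp) summed to 1780 to 2092 CPM in fasted and 1246 to 1664 CPM in fed libraries. Their part in the results was not tested.

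**Figure D3:**
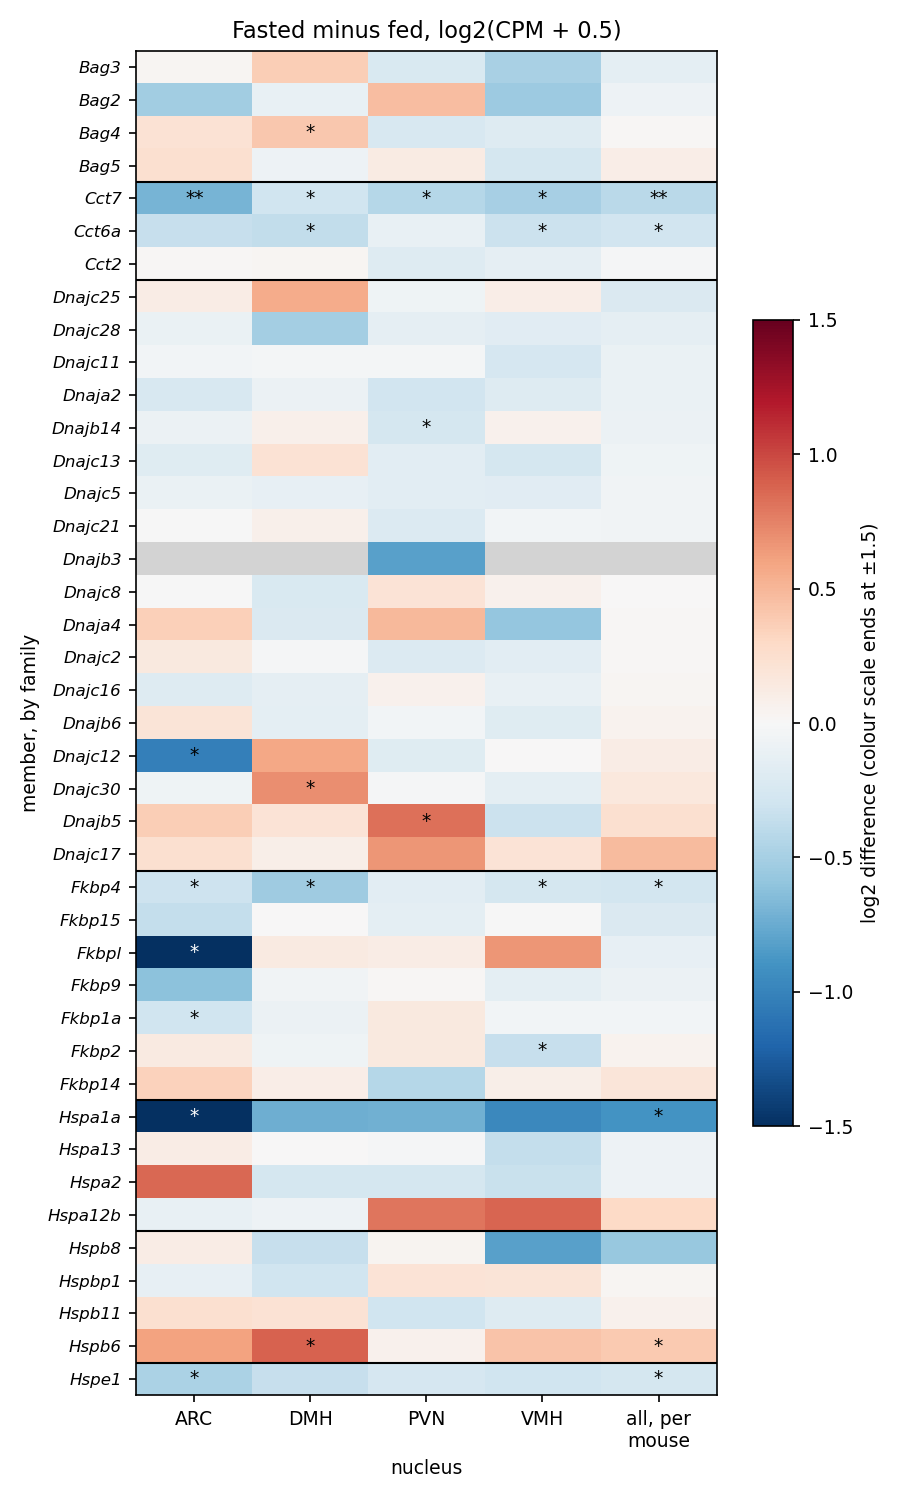
Log2 difference, fasted minus fed, of each chaperone gene in the 4 nuclei and over mice, on log2(CPM + 0.5), grouped by family. Red is higher and blue lower in fasted mice, 1 star marks an unadjusted p under 0.05, 2 stars an adjusted p under 0.1, and grey a gene under the filter. Cct7 in the ARC and over mice carries the 2 stars.

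The second question is whether fasted and fed mice differed on average over their nuclei, and here the mouse was the replicate. Each mouse had 1 value, its mean log2(CPM + 0.5) over its nuclei after the mean of each nucleus was subtracted. Such a mean cannot show whether a difference was shared by the nuclei, since a large change in 1 nucleus can move it. The mice also entered with different nuclei: mouse Fast-85 with the VMH alone, mouse Fed-92 with the DMH alone and mouse Fast-101 without the ARC. Cct7 fell in fasted mice, and it was the single member called. Its values in fasted mice were -0.09 in mouse Fast-85, -0.36 in mouse Fast-86, -0.13 in mouse Fast-100, -0.08 in mouse Fast-101, -0.41 in mouse Fast-305 and -0.19 in mouse Fast-311. The fed mice were at -0.01 in mouse Fed-92, 0.21 in mouse Fed-111, 0.27 in mouse Fed-125, 0.41 in mouse Fed-127, 0.18 in mouse Fed-308 and 0.11 in mouse Fed-313. All fasted mice lay below all fed mice, with mouse Fed-92, of which 1 library was analysed, closest to them. Over mice, 0.213% of all genes tested were lower without overlap and 0.273% higher. The difference was -0.41 ± 0.07 (adjusted p = 0.0288, limma), where 0.243% of the 9879 genes tested passed and 0.132% passed and were lower. Without batch in the model the adjusted p was 0.574. It was also over the threshold without mouse Fast-86 (0.117), Fast-100 (0.135), Fed-125 (0.135), Fed-127 (0.102) or Fed-308 (0.105), while the difference stayed between -0.45 and -0.38.

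A further 4 members had an unadjusted p under 0.05 and lower values in fasted mice, 5 of 40 with Cct7, beside 4.64% of all genes. Fkbp4 differed by -0.27 ± 0.08 (unadjusted p = 0.00455, adjusted p = 0.297, limma). The fasted mice lay between -0.37 and 0.17 with a median of -0.12, and the fed mice between -0.02 and 0.46 with a median of 0.08, so that mouse Fast-85, of which the VMH library alone was analysed, overlapped the fed mice. Cct6a differed by -0.28 ± 0.09 (adjusted p = 0.306), and 3 of the 6 fasted mice, Fast-101 at 0.20, Fast-100 at -0.03 and Fast-311 at -0.11, lay within the fed range of -0.16 to 0.33. Hspa1a differed by -0.89 ± 0.29 (adjusted p = 0.332), with fasted mice from -0.73 to 0.08 and fed mice from -0.29 to 1.26. Hspe1 differed by -0.26 ± 0.12 (adjusted p = 0.528, and -0.15 without mouse Fast-86), with fasted mice from -0.55 to 0.16 and fed mice from -0.07 to 0.46. Within single batches of each nucleus the mean of fasted libraries was below that of fed ones in 12 of 12 combinations for Fkbp4, in 11 of 12 for Cct6a and Hspe1, and in 9 of 12 for Hspa1a. The smallest of the Fkbp4 values was -0.00018, in batch 2 of the PVN. The counts of combinations come from the same libraries as these fits and are no separate test. They are given without the share of all genes.

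In the other direction, 1 member had an unadjusted p under 0.05, beside 4.79% of all genes. It was Hspb6 at 0.40 ± 0.19 (adjusted p = 0.529). Its fasted mice lay between -0.09 and 0.68 and its fed mice between -0.67 and 0.64.

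When all libraries entered 1 fit with the mouse as a random block, 3.19% of all genes passed, and the members called were Cct7, Fkbp4, Cct6a, Hspa1a and Hspe1. Their adjusted p was 3.2e-06, 0.00374, 0.0282, 0.0301 and 0.0520, and their differences were -0.46, -0.31, -0.29, -1.02 and -0.33. That fit counts libraries rather than mice as its units, and the correlation it estimated within mice was -0.00395. Without mice Fast-85 and Fed-92, of which 1 library each was analysed, the fit of mouse values called 1.81% of all genes (177, against 24 with all mice) and 3 members, Fkbp4 (adjusted p = 0.0490) and Hspa1a (adjusted p = 0.0805) beside Cct7. Hsph1, the Hsp110 gene left out of the set, fell over the same mice by 0.70 on the log2 scale (adjusted p = 6.1e-06).

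**Figure D4:**
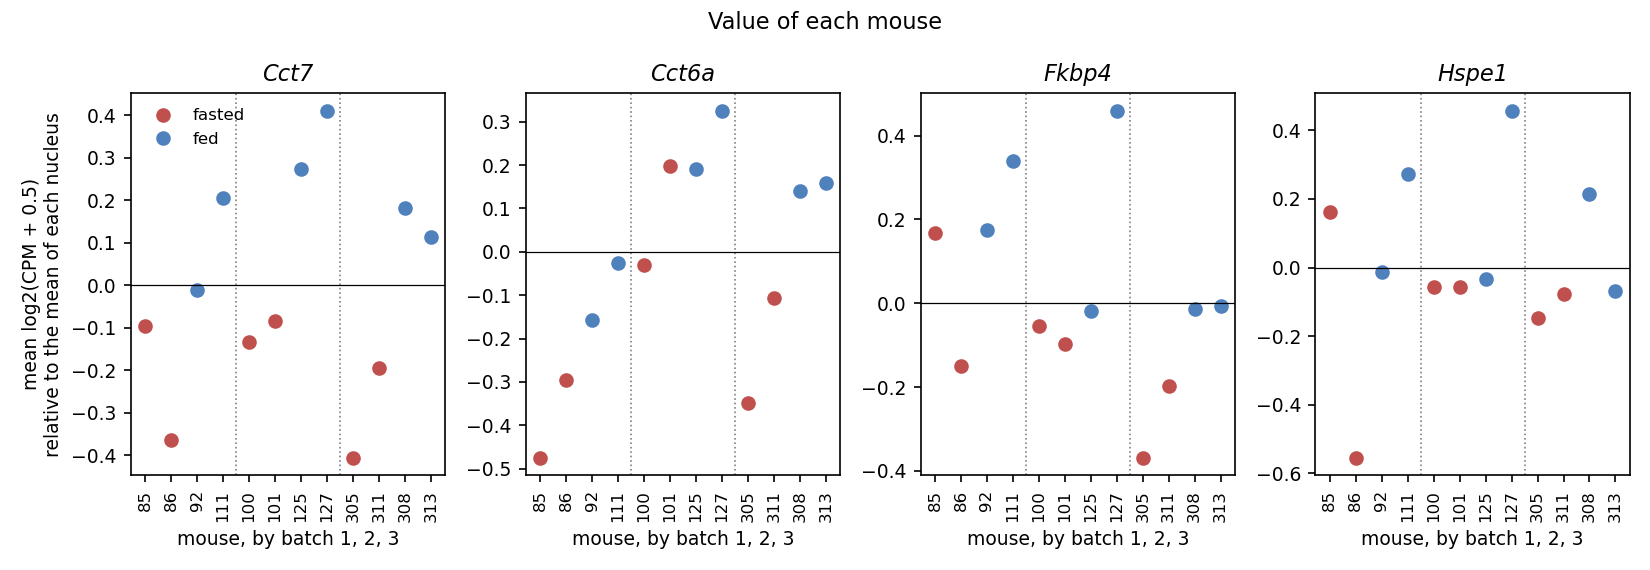
Value of each of the 12 mice for 4 chaperone genes, as mean log2(CPM + 0.5) relative to the mean of each nucleus, with fasted mice in red and fed mice in blue and dotted lines between batches. All fasted mice are below all fed mice for Cct7 (at most -0.08 against at least -0.01), as for 0.213% of all genes tested. For Cct6a, Fkbp4 and Hspe1, 1 fasted mouse or more overlaps the fed mice.

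Grouped by family, the 3 Cct genes all had a difference below 0 over mice (-0.41, -0.28 and -0.02), with a median of -0.28, and 1 of 3 was called. The Cct2 value of -0.02 turned positive in 3 of the 12 fits that left out 1 mouse, and was 0.06 without mouse Fed-127. The Dnaj genes were spread around 0, with 8 of 17 tested below it and a median of 0.01. Of the 7 Fkbp genes 5 were below 0 (median -0.09), of the 4 Hspa genes 3 (median -0.08), of the 4 Bag genes 2 (median -0.03) and of the 4 genes with Hspb symbols 1 (median 0.04). The small heat shock proteins among these were at 0.40 (Hspb6) and -0.56 (Hspb8), and Hspb8 was at -0.26 without mouse Fed-92, whose value of 1.84 stood apart from the other fed mice. The median of all genes tested was 0.01, with 48.7% below 0.

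Grouped by site and control, the 4 measured genes of a list of 12 known to be raised by HSF1 (Hspa1a, Hspe1, Fkbp4 and Bag3) had differences below 0 over mice with a median of -0.27, and none passed the adjusted threshold. Bag3, a partner of Hspb8 in selective autophagy, was at -0.14 ± 0.22. Without mouse Fed-308 it was at -0.03, without mouse Fast-305 at -0.04 and without mouse Fast-101 at -0.24. Of a list of 14 ER chaperones 4 were measured (Hspa13, Fkbp2, Fkbp9 and Fkbp14), and they lay around 0 with a median of -0.01, 2 on each side. Dnajb14 of the ER membrane, which is not on that list, was at -0.08. Of a list of 7 mitochondrial chaperones 2 were measured, Hspe1 at -0.26 and Dnajc11 at -0.10, and the mitochondrial Dnajc30, which is not on that list, was at 0.15 (0.05 without mouse Fed-92).

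Of 49 other genes of the chaperone pathway 16 were measured, and 0 passed the adjusted threshold of limma in any nucleus or over mice. At an unadjusted p under 0.05, 1 was lower and 0 higher in the ARC (beside 3.71% and 4.39% of all genes), 1 and 1 in the DMH (3.53% and 3.1%), 2 and 2 in the PVN (4.96% and 5.01%), and 4 and 0 in the VMH (3.55% and 3.43%). Over mice, 3 of the 16 had an unadjusted p under 0.05, all lower in fasted mice (beside 4.64% of all genes), and 11 of 16 were below 0 with a median of -0.02. They are named here after their values were seen: Ptges3, the Hsp90 partner p23 (-0.29 ± 0.08, adjusted p = 0.252), Cryab, the small heat shock protein alpha-B crystallin of oligodendrocytes and astrocytes (-0.51 ± 0.18, adjusted p = 0.378), and Serpinh1, the collagen chaperone Hsp47 (-1.12 ± 0.43, adjusted p = 0.438, and -0.65 without mouse Fed-92). Fed values of Serpinh1 in the DMH ranged from 1.54 to 43.8 CPM, and fasted ones from 0 to 8.07.

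The third question is whether the fasting response differed between nuclei. No gene passed the F-test of that difference over 10121 genes (0 called, and 563 or 5.56% at an unadjusted p under 0.05), and 2 of the 41 members were under 0.05. Dnajb5 had the smallest p (unadjusted 0.0110, adjusted 0.824, limma), with a difference of 0.83 in the PVN (0.46 without mouse Fast-86 or Fed-111) and -0.32 in the VMH (-0.16 without mouse Fast-86, -0.15 without mouse Fed-111 and -0.50 without mouse Fed-308). Fkbp1a (unadjusted p = 0.0356, limma) was at -0.30 in the ARC and 0.15 in the PVN (0.09 without mouse Fast-86 or Fed-111). Fkbpl, the next in rank, was at -1.75 in the ARC on values of 0 to 11.4 CPM. Its ARC difference was -0.91 without mouse Fast-86 or Fed-111 and -2.93 without mouse Fast-100, and within batches it was -4.57, 0.89 and -2.11. For Cct7 the p of that test was 0.185 (adjusted 0.923), so its larger difference in the ARC is not shown to differ from that of the other nuclei.

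The nuclei themselves were then compared within mice, with the mouse as a fixed block. Of the 41 members 22 (53.7%) differed between nuclei by the F-test, where 43.3% of all genes did. A member was called higher or lower in a nucleus where it differed from the mean of the other nuclei by 0.5 or more on the log2 scale with an adjusted p under 0.1. A nucleus that is low for a gene therefore raises the difference of each of the others. Hspb8, the small heat shock protein that works with Bag3, had the largest difference of a nucleus from the mean of the others. It lay between 20.6 and 80.6 CPM in the ARC (median 28.0), 5.09 and 41.8 in the DMH (median 10.3), 11.7 and 37.5 in the PVN (median 24.4) and 1.69 and 13.4 in the VMH (median 5.18). No VMH library reached the lowest ARC library. Hspb8 was higher in the ARC by 1.55 ± 0.26 (adjusted p = 1.3e-05) and in the PVN by 1.05 ± 0.25 (adjusted p = 0.0016), and lower in the VMH by 1.99 on the log2 scale (a difference of -1.99 ± 0.25, adjusted p = 1.8e-08).

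Bag3 was likewise lowest in the VMH. Its median was 9.13 CPM in the ARC, 7.16 in the DMH, 9.57 in the PVN and 2.50 in the VMH, where libraries held 0.612 to 7.69 CPM. The VMH difference was -1.77 ± 0.27 (adjusted p = 9.5e-07). Bag3 was also called higher in the PVN (0.76 ± 0.27, adjusted p = 0.0398), a call that rests on 1 mouse: PVN of mouse Fed-111 held 43.2 CPM, the other PVN libraries held at most 20.04, and without that mouse the adjusted p was 0.171. The Bag3 differences in the ARC and the DMH were 0.56 and 0.45, since the low VMH is part of the mean of the others for each. The PVN call is thus not a difference from the ARC or the DMH alone. Hspb8 and Bag3 were chosen for these calls by the rule on named genes, and no test of their likeness was run.

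The Fkbp genes divided the nuclei in other ways. Fkbp1a was higher in the VMH, at 644 to 835 CPM (median 718), than in every other library: the ARC reached 601, the DMH 605 and the PVN 521. The difference was 0.69 ± 0.06 (adjusted p = 7.5e-12), with both fed and fasted libraries above the other nuclei. Fkbp14, an ER isomerase that acts on collagen, had a median of 29.6 CPM in the ARC, 22.0 in the DMH, 25.2 in the PVN and 10.9 in the VMH. It was higher in the ARC (0.70 ± 0.17, adjusted p = 0.00276, and 0.288 in fed libraries alone) and lower in the VMH (-1.10 ± 0.17, adjusted p = 9.8e-07). The Fkbp14 differences in the DMH and the PVN were 0.10 and 0.30, also against a mean that takes in the low VMH. The ER isomerase Fkbp2 was higher in the PVN, at 99.6 to 158 CPM with a median of 136, by 0.68 ± 0.10 (adjusted p = 3.6e-07). Of the 31 libraries of the other nuclei 9 were at or above the lowest PVN value, 3 each in the ARC, the DMH and the VMH, up to 174 CPM in the VMH. Fkbp9, also of the ER, was higher in the PVN by 0.73 ± 0.21 (adjusted p = 0.0105), with a median of 23.9 CPM there and of 14.7 to 16.97 CPM elsewhere.

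The further calls were all in the VMH. Hspb6 was higher there, at 9.25 to 31.2 CPM (median 23.0) against medians of 8.50, 13.9 and 11.6 in the ARC, DMH and PVN (0.80 ± 0.23, adjusted p = 0.00796, and 0.122 in fed libraries alone). Dnajc12, a co-chaperone of the aromatic amino acid hydroxylases, was lower (-1.01 ± 0.29, adjusted p = 0.00769), with a VMH median of 6.60 CPM against 24.1, 16.1 and 19.4. One VMH library, that of mouse Fast-86, held the highest Dnajc12 value of all, 34.9 CPM. Hspa12b, an Hsp70 relative of endothelial cells, was lower at -0.81 ± 0.34 (adjusted p = 0.0794). In all, 2 members were higher in the ARC, beside 5.75% of all genes, 4 in the PVN (6.43%) and 2 in the VMH (10.3%), and 5 were lower in the VMH (9.68%). No member was called in the DMH, where 4.88% of all genes were higher and 3.26% lower, and none was lower in the ARC (7.56% of all genes) or the PVN (8.14%).

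Cell type markers differed between the captures as well. The summed vessel markers were at 206 to 354 CPM in the PVN and 67.6 to 185 CPM elsewhere. The 7 measured of 10 oligodendrocyte markers summed to 1129 to 1780 CPM in the VMH and to 246 to 1587 CPM elsewhere, and the 2 measured of 7 ependymal and tanycyte markers to 22.3 to 67.8 CPM in the ARC and at most 23.5 CPM elsewhere. Their part in the nucleus differences was not tested.

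**Figure D5:**
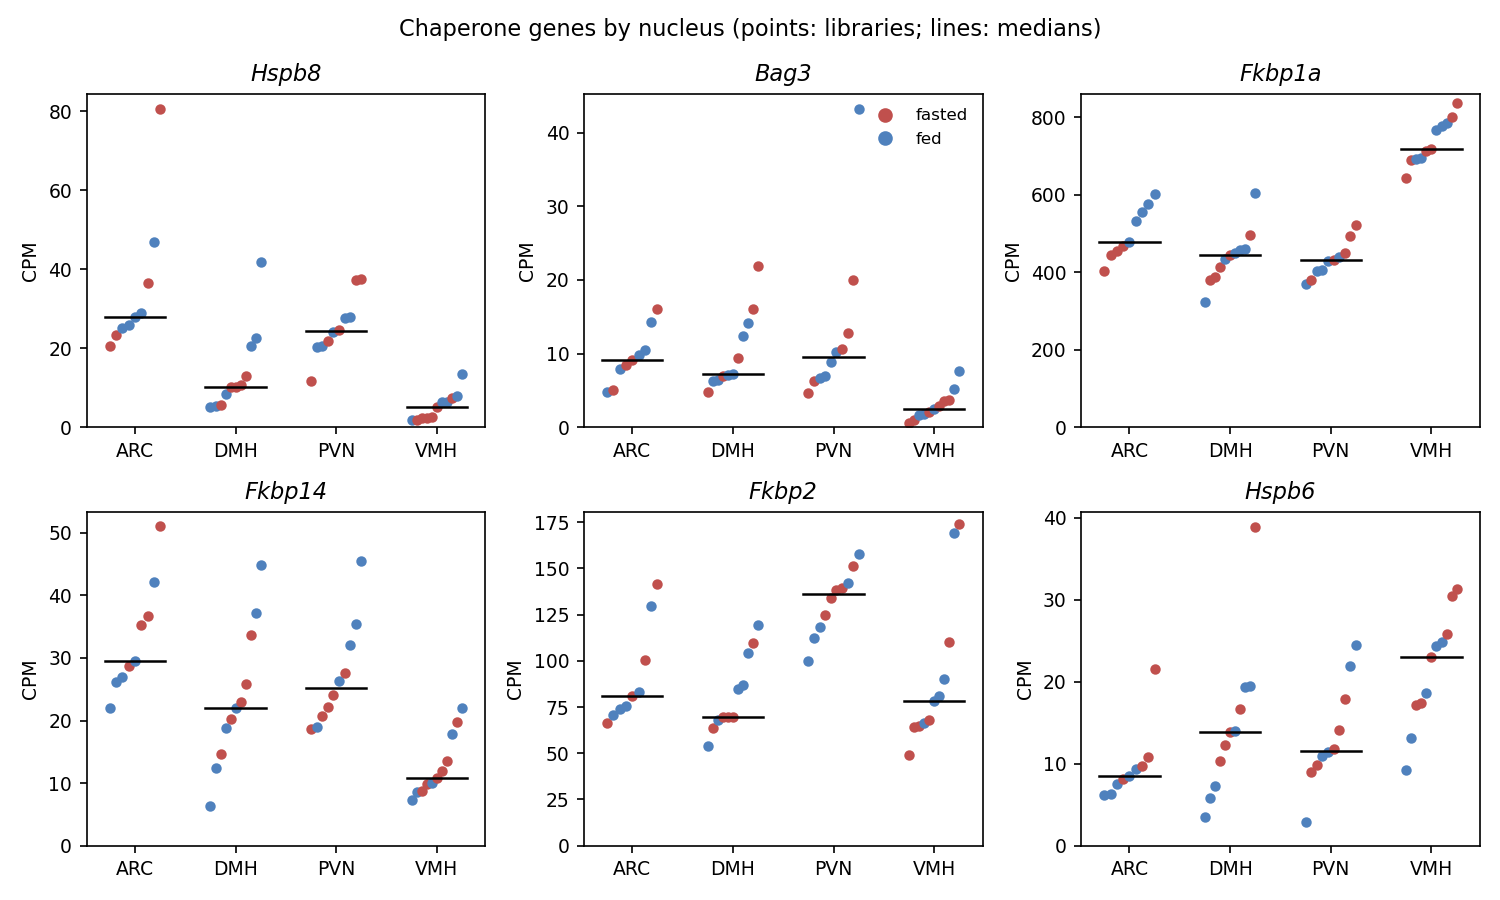
CPM of 6 chaperone genes in each library by nucleus, with fasted mice in red, fed mice in blue and the median as a line. All VMH libraries of Fkbp1a (644 to 835) are above those of the other nuclei, and the VMH medians of Hspb8 (5.18), Bag3 (2.50) and Fkbp14 (10.9) are the lowest.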

How the data were processed

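The authors amplified RNA from laser-captured nuclei (Ovation RNA-Seq V2) and sequenced it as single-end reads. The submitters' processing notes name CASAVA 1.7, TopHat2 2.0.11, Cufflinks 2.2.1, edgeR and limma, and GRCm38. The step that assigned reads to genes, and its use of strand, are not given in the sources used here, so overlapping genes and near-identical copies may share reads. The authors left out outlier libraries and deposited CPM, reads per gene scaled to the size of the library. The deposited CPM table held 10127 genes, of which 9891 were given a symbol through GENCODE M21. Of its columns 41 matched a sample, and 2, named ARC with the numbers of mice Fast-85 and Fed-92, matched none: the labels place those samples in the PVN, 1 of the 2 sources may be wrong, and 41 of 43 samples are analysed here.

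Depth was read from the steps between low values, of which 97.7% to 98.7% were whole multiples of 1 read (tolerance 0.1 read, up to 20 reads). In 101 genes a positive value lay under 0.01 CPM, so reads were not recovered and no count test was run. After amplification, reads are not independent molecules.

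Fasted and fed libraries were compared in each nucleus with limma 3.58.1 in R 4.3.3, 2-sided, on log2(CPM + 0.5), which understates changes of low genes. Batch was a covariate, a gene had to reach 1 CPM in at least as many libraries as the smaller group has, and p-values were adjusted over all genes tested by the Benjamini-Hochberg method, with a threshold of 0.1. The paper reports 3 batches of laser capture and library preparation. In the fits, batch 1 held mice Fast-85, Fast-86, Fed-92 and Fed-111, and batch 2 mice Fast-100, Fast-101, Fed-125 and Fed-127. Batch 3 held mice Fast-305, Fast-311, Fed-308 and Fed-313. Over mice, 1 value per mouse was fitted with batch. Nuclei, and the difference in fasting response between them, were tested with the mouse as a fixed block, since the labels give the nuclei of 1 mouse the same number. The deviations of libraries from their group means had a median correlation of 0.0998 over 57 pairs from the same mouse and -0.0045 over 572 other pairs. Scripts were tested on simulated data.

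The genes named were Cct7, Hspe1, Hspa1a and Fkbp4, members past a threshold, the 3 with the smallest p in each nucleus and in the test of the difference, the 2 largest rises and falls per nucleus, and the highest member per kilobase of each family. Other genes were named as part of a list or after their values were seen. Among the latter are Dnajc5, given for its spread, and Hspb11, given for its level, where the text does not say so. Members, lists, tests and most alternatives were chosen with earlier results of these data known. Alternatives were other pseudocounts (0.1 and 2), filters (none and 5 CPM), no batch, median-ratio scaling, library weights, a depth covariate, the block, and each library or mouse left out. Within-batch values, principal transcript lengths, nuclei compared in 1 state alone, and libraries left out for genes outside the rule were added after the data were seen. Promoter windows were RefSeq's on GRCm38.p6.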

Additional observations from a re-analysis of the deposited data

Results flagged for a closer look

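Within the 8 groups of 4 to 6 libraries, 19 named chaperone genes gave 152 sets of values, and in 18 of them 1 library stood apart from the rest by Dixon's test. Chance gives about 1 in 20, or 7.6 of 152. The 18 sets involved 11 different libraries. In 7 of the 18 the library apart came from mouse Fast-86 and in 6 from mouse Fed-111, both of batch 1, and in 1 each from mice Fed-92, Fast-100, Fed-127, Fast-305 and Fast-311.

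Mouse Fast-86 held the lowest Dnaja2 of its group in the ARC (98.5 CPM, the others at least 197) and the DMH (95.5, the others at least 163), and the lowest Hspa13 in the fasted PVN (64.1, the others at least 95.8). It held the highest Dnajb5 in the fasted ARC (67.8, the others at most 53.0). In the fasted DMH it was highest for Fkbp2 (109, the others at most 69.8), Hspb6 (38.9, the others at most 16.6) and Fkbpl (14.3, the others at most 1.51).

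Mouse Fed-111 held the highest Fkbp2 in the fed ARC (130 CPM, the others at most 83.2) and the fed VMH (169, the others at most 90.1). It was also highest for Hspb8 in the fed ARC (46.8, the others at most 28.9), for Fkbpl in the fed VMH (4.07, the others at most 1.25), and in the fed PVN for Bag3 (43.2, the others at most 10.2) and Dnajb14 (259, the others at most 219).

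The other libraries that stood apart were single cases. Hspe1 in the fed ARC was 192 CPM in mouse Fed-127, the others at most 112. Cct7 in the fasted VMH was 139 in mouse Fast-305, the others at least 171, and Cct2 in the fasted DMH was 192 in mouse Fast-311, the others at most 171. Fkbpl in the fasted ARC was 6.08 in mouse Fast-100, the others at most 0.402, and Dnajb5 in the fed DMH was 111.4 in mouse Fed-92, the others at most 67.2.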

How the results depend on the processing

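Without the batch covariate, the ARC had 0 genes and 0 members called, the DMH 0 genes, the PVN 3, the VMH 1, and the fit over mice 1 gene and 0 members. In the ARC, 4 genes were called with a pseudocount of 0.1 and 5 with no filter. With library weights the counts were 2 genes in the DMH, 79 genes and 1 member in the PVN and 5 genes in the VMH, and with depth as a covariate 0 in the DMH, 55 genes and 1 member in the PVN and 1 in the VMH. The member called in the PVN was Cct7 with weights and Dnajb5 with depth, and the depth covariate gave Hspa1a in the DMH a difference of 0.96, against -0.74 without it. The cause was not tested.

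Leaving out 1 library at a time gave 3 to 23 genes in the ARC (17 with all) and 0 to 1 member, 1 to 2 genes in the DMH (1 with all), 2 to 31 in the PVN (35 with all) and 1 to 5 in the VMH (2 with all). Leaving out 1 mouse gave 6 to 40 genes (24 with all) and 0 to 1 member over mice, 0 to 1 gene for the difference in response between nuclei, 2 to 4 members higher or lower in the ARC and 0 to 2 in the DMH. No paired analysis was possible because fasted and fed groups share no mouse. With the mouse as a random replicate block over all libraries, 315 genes and 5 members were called. In the fit of 1 value per mouse, 177 genes and 3 members were called without the mice of which 1 library was analysed, against 24 genes and 1 member with all mice. Between nuclei, where the mouse is a block in the fits reported, leaving out the block gave 4 members in the ARC and 1 in the DMH. The DMH count was also 1 with a pseudocount of 2, with a filter of 5 CPM and with median-ratio scaling, against 0. In the fits reported, 5.75% of all genes were higher and 7.56% lower in the ARC, and 4.88% and 3.26% in the DMH. The shares of all genes under these alternatives, or with 1 mouse left out, are not given here. The counts between nuclei are therefore not read as a result about the members. Of 649 alternative values of single members, 626 kept their direction and their side of the threshold, 14 lost the call, 8 gained it and 1 changed sign. That 1 does not take in every sign change with a library or mouse left out. The small Cct2 difference, for example, changed sign in 4 of 9 such fits in the ARC and in 3 of 12 over mice. Depth limits the low members Hspa1a, Bag3, Fkbpl and Dnajb3, whose values rest on few reads.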
